A study of Mus musculus with 38 samples.

Results

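The B lymphocyte genes described here are 9 genes whose products belong to the antigen receptor complex of B cells, to their surface, or to the kinases and transcription factors inside them: Cd79a, Cd79b, Ms4a1, Cd22, Fcer2a, Cr2, Blk, Pax5 and Fcrla. Their probes were found through the transcript accession that the array gives for each probe, and no measured value entered that rule, although the 9 genes were picked with earlier results of these data known. All 9 were on the array, with 11 probes (Cr2 and Pax5 had 2 each), of 20018 genes with a symbol and 55681 probes in all. Where a gene had 2 probes, the brighter one was used and the other is given beside it.

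Male MutaMouse of about 10 weeks, a transgenic strain that carries a lacZ reporter for mutation assays, were gavaged daily for 28 days with dibenz(a,h)anthracene (DBahA), a polycyclic aromatic hydrocarbon, dissolved in olive oil. The doses were 6.25 (D1), 12.5 (D2) and 25 (D3) mg/kg-bw/day, and control mice (D0) received the oil only. Lung and forestomach were removed 72 h after the last dose, and RNA was taken from random sections of the tissue. Each of the 38 arrays held 1 tissue RNA labelled with Cy5 and a common reference RNA, pooled from mouse cell lines, labelled with Cy3, with no dye swap. Lung was measured in 5, 5, 4 and 5 mice of D0 to D3, and forestomach in 5, 5, 4 and 4 mice. The level of a gene is given as log2(Cy5/Cy3) after loess normalization. It can be compared between samples for 1 probe but not between genes, because the reference holds each transcript in a different amount.

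B lymphocytes recognize antigen through a membrane immunoglobulin that signals by way of its partner chains CD79a (Cd79a) and CD79b (Cd79b). The kinase BLK (Blk) passes this signal on, CD22 (Cd22) restrains it, and complement receptor CD21 (Cr2) strengthens it. CD20 (Ms4a1) and the low-affinity IgE receptor CD23 (Fcer2a) mark mature B cells, FCRLA (Fcrla) is an Fc receptor-like protein that stays inside the cell, and PAX5 (Pax5) is the transcription factor that holds cells in the B lineage. In the lung, B cells are found in the blood of the capillary bed and in lymphoid aggregates along the airways, while the forestomach is lined by a stratified squamous epithelium.

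RefSeq promoter windows of assembly GRCm38.p6 were found for 6 of the 9 genes, with 8 windows among them. In the 250 bases before the transcription start, 3 motifs of factors known from B cells were searched on both strands. These were CCCNNGGG, the core of the EBF site, ATGCAAAT, the octamer bound by Oct factors, and GAGGAA, the core of a PU.1 or Ets site. The EBF core was in 1 of the 8 windows, against 11.8% of all 32851 windows of the same length, and the octamer was in 0 of 8, against 1.6%. The PU.1 core was in 2 of 8, against 23.3%. All windows with a match are shown 5′ to 3′ on the strand of the gene, with the matched letters in capitals. They lie at chr7:24897247-24897496 on the plus strand (Cd79a), chr1:170927584-170927833 on the minus strand (Fcrla) and chr7:30879029-30879278 on the minus strand (Cd22).
Cd79a: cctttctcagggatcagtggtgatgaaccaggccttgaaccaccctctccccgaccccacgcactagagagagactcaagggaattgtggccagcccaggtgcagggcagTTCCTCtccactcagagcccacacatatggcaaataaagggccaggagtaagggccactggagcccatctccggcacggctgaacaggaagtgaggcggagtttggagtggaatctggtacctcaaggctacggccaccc
Fcrla: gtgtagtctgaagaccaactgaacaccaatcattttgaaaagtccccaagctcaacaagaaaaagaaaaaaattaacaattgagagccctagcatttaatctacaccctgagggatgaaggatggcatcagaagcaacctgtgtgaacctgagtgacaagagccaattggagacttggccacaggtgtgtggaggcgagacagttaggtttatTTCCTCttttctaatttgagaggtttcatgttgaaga
Cd22: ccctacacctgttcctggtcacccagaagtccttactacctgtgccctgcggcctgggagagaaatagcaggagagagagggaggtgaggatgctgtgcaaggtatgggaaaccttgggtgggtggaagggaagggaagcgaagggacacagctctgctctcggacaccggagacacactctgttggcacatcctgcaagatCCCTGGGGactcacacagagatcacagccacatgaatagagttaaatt
The capitals mark the PU.1 core on the strand opposite to the gene, starting 140 bases before the start of Cd79a and 37 bases before that of Fcrla, and the EBF core 48 bases before that of Cd22. A match describes these letters only. The windows of Cr2, Fcer2a and Pax5 held none of the 3 motifs.

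Between 30.1% and 63.8% of probes were well above background in Cy5 on an array. The tissues carried their own markers. All 6 genes of lung epithelium on the array, such as the surfactant genes Sftpc and Sftpb, were called higher in lung than in forestomach at D0, with a median log2 difference of 6.14, and 6 of 7 genes of squamous epithelium, such as Krt13 and Krt4, were called lower. Forestomach arrays fell apart by 8 genes of glandular stomach, the neighbouring part of the organ. Their mean log2 ratio lay between 4.69 and 6.65 on 13 arrays and between 0.42 and 1.03 on 6 arrays, which were those of D0 mice 2 and 5, D1 mice 8 and 9, D2 mouse 15 and the first array of D3 mouse 18. The second array with that mouse number stood at 6.26, so the arrays of this mouse differed in these markers. They were averaged to 1 replicate. The part of the glandular stomach in the values of the B cell genes was not tested beyond the fit named below. Lung lay in one row of every slide and forestomach in the other, and the dose groups lay in fixed columns apart from D0 mouse 1, so tissue and dose cannot be told apart from the place on the slide.

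In control mice, 5 of the 9 genes were called higher in lung than in forestomach and none lower. These were Cd79b, Cr2, Ms4a1, Fcrla and Cd79a. A gene was called when it differed by 1.5-fold or more with an adjusted p (limma, Benjamini-Hochberg over all 55681 probes) no higher than 0.05. Of all 55681 probes, 4799 (8.62%) were called higher in lung by this rule and 4233 lower. In a piece of tissue, fewer B cells and less RNA per B cell cannot be told apart.

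The receptor chain Cd79b had log2 ratios of 1.02, 0.67, 1.30, 1.17 and -0.21 in the lungs of D0 mice 1 to 5, and of -3.60, -3.18, -3.03, -2.36 and -3.30 in their forestomachs. Every lung lay above every forestomach. The log2 difference was 3.88 (SE 0.30), with an adjusted p of 2.38e-12 (limma). The forestomach signal was well above background on 2 of the 5 D0 arrays, so the size of the difference is uncertain. Its partner Cd79a was much dimmer. It stood at 0.89, 0.71, 0.75, 0.47 and 0.24 in the D0 lungs, of which mouse 5 was not well above background, and at -0.11, 0.16, -0.01, -0.01 and -0.04 in the forestomachs, none of which was. The groups did not overlap. The log2 difference of Cd79a was 0.61 (SE 0.10, limma adjusted p = 1.07e-05), and measured against the lowest detectable signal of the forestomach arrays it was at least 1.39-fold higher in lung. This bound sets the mean Cy5 level in lung against the dimmest probe well above background on each forestomach array, and without a dye swap it is open to dye bias. Its call rested on a fold just past 1.5, and was lost without D0 lung of mouse 1 (0.55) or of mouse 3 (0.58), and with arrays centred on their median instead of loess (0.26, limma adjusted p = 0.092).

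Among the surface proteins, Ms4a1 stood at 0.90, 0.20, 0.87, 0.80 and -0.93 in the lungs of D0 mice 1 to 5 and at -3.13, -2.67, -2.04, -1.82 and -2.55 in their forestomachs. All 5 lungs were above all 5 forestomachs, of which 1 array was well above background. The log2 difference of Ms4a1 was 2.81 (SE 0.36, limma adjusted p = 1.01e-07), and its size is uncertain for the same reason. Cr2 gave 3.64, 3.14, 2.68, 3.24 and 2.45 in the same lungs and 0.09, 0.28, 0.05, -0.11 and -0.30 in the forestomachs, with 2 of the 5 forestomach arrays well above background. The tissues were far apart for Cr2, with a log2 difference of 3.03 (SE 0.22, limma adjusted p = 5.99e-13). Its second probe differed by 1.18 (SE 0.13, limma adjusted p = 4.66e-09), and since no D0 forestomach array was well above background for it, it was at least 1.96-fold higher in lung.

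Cd22 and Fcer2a did not pass the test between the tissues. Cd22 was well above background on all 38 arrays, and at D0 it lay between 0.44 and 0.68 in lung and between 0.02 and 1.00 in forestomach, so the lungs fell inside the range of the forestomachs. Its log2 difference was 0.05, with a 95% interval from -0.26 to 0.35 (limma adjusted p = 0.867). Fcer2a lay between 0.47 and 1.26 in the D0 lungs and between 0.06 and 1.60 in the forestomachs, where 3 of 5 arrays were well above background and mouse 2 was the highest. Its log2 difference was 0.25, with an interval from -0.27 to 0.77 (limma adjusted p = 0.531). Both intervals lie below the log2 differences of Ms4a1 and Cr2. The ratios were not background-corrected, though, so a dimmer probe can show less of a difference. Mean log2 Cy5 in the D0 lungs was 7.49 for Fcer2a and 8.60 for Cd22, against 10.10 for Ms4a1 and 9.33 for Cr2. Whether the probes of Cd22 and Fcer2a could have shown a difference of that size was not tested.

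Inside the cell, Fcrla stood at 2.54, 2.15, 1.30, 0.89 and 0.83 in the lungs of D0 mice 1 to 5 and at 0.06, 0.10, -0.13, -0.04 and -0.20 in the forestomachs. The groups did not overlap, and no forestomach array of any dose was well above background. Fcrla differed by 1.58 on the log2 scale (SE 0.23, limma adjusted p = 1.55e-06), at least 2.20-fold higher in lung. Blk was well above background on 1 of 19 lung arrays and on no forestomach array. The brighter probe of Pax5 passed on 5 of 19 lung arrays and 1 forestomach array, so no fold is given for these 2 genes.

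The size of these differences depended on how the dim forestomach signals were treated. With the background-subtracted ratios that the scanner software gives, the log2 differences at D0 were 5.68 for Cd79b, 5.68 for Ms4a1, 4.77 for Cr2, 4.46 for Fcrla and 2.36 for Cd79a. With arrays centred on their median, that of Fcrla was 0.83. The direction was the same in each.

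The same order of the tissues held in single animals. Of the 18 mice with both tissues, all 18 had the higher log2 ratio in lung for Cd79a, Cd79b, Ms4a1, Cr2 and Fcrla. These mice include the 5 D0 mice behind the calls above, and the share of all probes with such a count was not computed. The median log2 difference within a mouse was 3.84 for Cd79b, 2.76 for Ms4a1, 2.69 for Cr2 (1.10 by its second probe), 1.55 for Fcrla and 0.68 for Cd79a. The forestomach signal behind these medians was well above background on 12, 2, 11, 0 and 2 of 19 arrays in the order given, and on 3 for the second probe of Cr2, so they describe the measured ratios and not a fold. Cd22 was higher in lung in 14 of 18 mice and Fcer2a in 13 of 18, with medians of 0.28 and 0.17. When only the forestomach arrays low in glandular stomach markers were kept, a choice made after seeing the data, 4 of the 9 genes were called at D0. The log2 differences were then 4.03 for Cd79b, 3.04 for Cr2, 2.98 for Ms4a1 and 1.59 for Fcrla, while Cd79a stood at 0.55, under the fold limit. That of Fcer2a turned to -0.22 (limma adjusted p = 0.627).

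**Figure D1:**
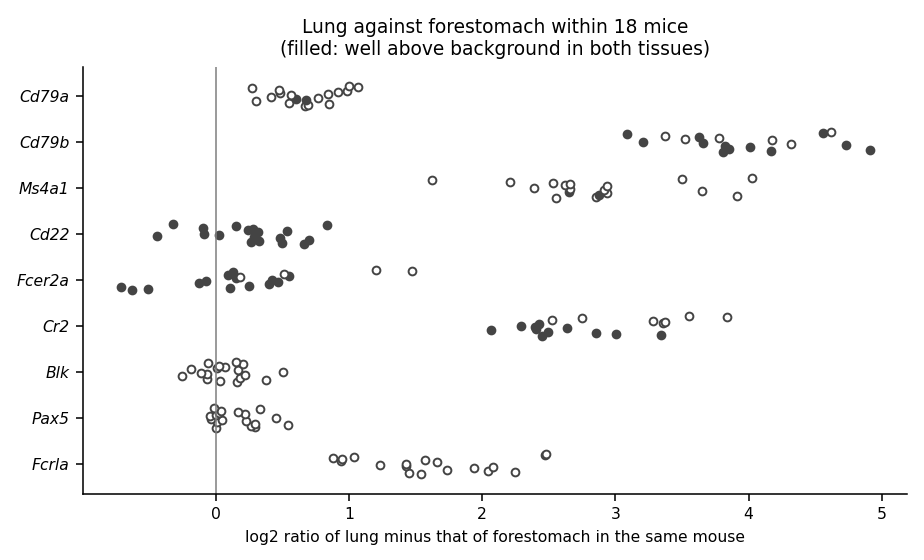
Log2 ratio of lung minus that of forestomach (horizontal axis) in each of the 18 mice with both tissues, 1 circle per mouse, for each of the 9 genes; filled circles were well above background in both tissues. All 18 circles lie above 0 for Cd79a, Cd79b, Ms4a1, Cr2 and Fcrla, while those of Cd22 and Fcer2a lie on both sides.

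Other genes of B cells, from a list that shares no gene with the 9, showed the same order. Of these 12 genes, 8 were called higher in lung at D0 and none lower, with a median log2 difference of 1.35 against -0.01 over all probes. The largest were Vpreb3 (4.63), a partner of the immunoglobulin chains, Bank1 (1.99), a scaffold of receptor signalling, and Cxcr5 (1.85), the receptor for the follicle chemokine CXCL13. These log2 differences had limma adjusted p-values from 1.34e-19 to 1.65e-08. Of the 10 D0 arrays of both tissues, 5, 6 and 5 were well above background for these genes, so the sizes and their order are uncertain. Of 15 genes of signalling below the B cell receptor, 10 were called higher in lung and 2 lower. Of 7 chemokines and cytokines that draw or keep B cells, 2 were higher, Ltb (2.94) and Tnfsf13b (1.52). For Tnfsf13b, 5 of the 10 arrays were well above background, so its size is uncertain too. Plasma cell genes did not share this order, with 1 of 8 called higher in lung (Jchain, 0.67) and 1 lower (Prdm1, -1.10), and a median of 0.00. Markers of other immune cells were also called higher in lung. These were 5 of 10 for T cells, 2 of 5 for NK cells and 7 of 7 for macrophages and granulocytes. Of the MHC class II genes, which do not mark 1 cell type, 7 of 8 were called higher in lung.

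At no dose of DBahA was any of the 9 genes called in lung. The counts were 0 of 9 at D1, D2 and D3, where 0.14%, 0.264% and 0.639% of all probes were called. Genes of another kind changed in the same lungs. All 6 targets of p53 on a short list rose at D2 and D3 and 5 of 6 at D1, among them Gdf15, a secreted stress cytokine, by 3.63 and Cdkn1a, an inhibitor of the cell cycle, by 2.93 on the log2 scale at D3 (limma adjusted p = 1.85e-09 for each). At an unadjusted p under 0.05, 1 of the 9 passed at D2 (Cd79b) and none at D1 or D3, where 4487, 3636 and 6271 of all 55681 probes did. Of the 7 genes measured in lung, 3, 6 and 3 had a negative log2 fold change in the order of the doses. Among the 7 genes measured in lung, the 95% interval of the log2 fold change lay within 2-fold in either direction for 7, 5 and 6 of them in the order of the doses, and within 1.5-fold for 3 at each dose. These intervals concern ratios without background correction, which move less for a dim probe than the RNA does. For Cd79a, mean log2 Cy5 at D0 was 6.68 in lung and 6.06 in forestomach, where no array was well above background. A narrow interval for Cd79a therefore does not exclude a large change of its RNA.

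**Figure D2:**
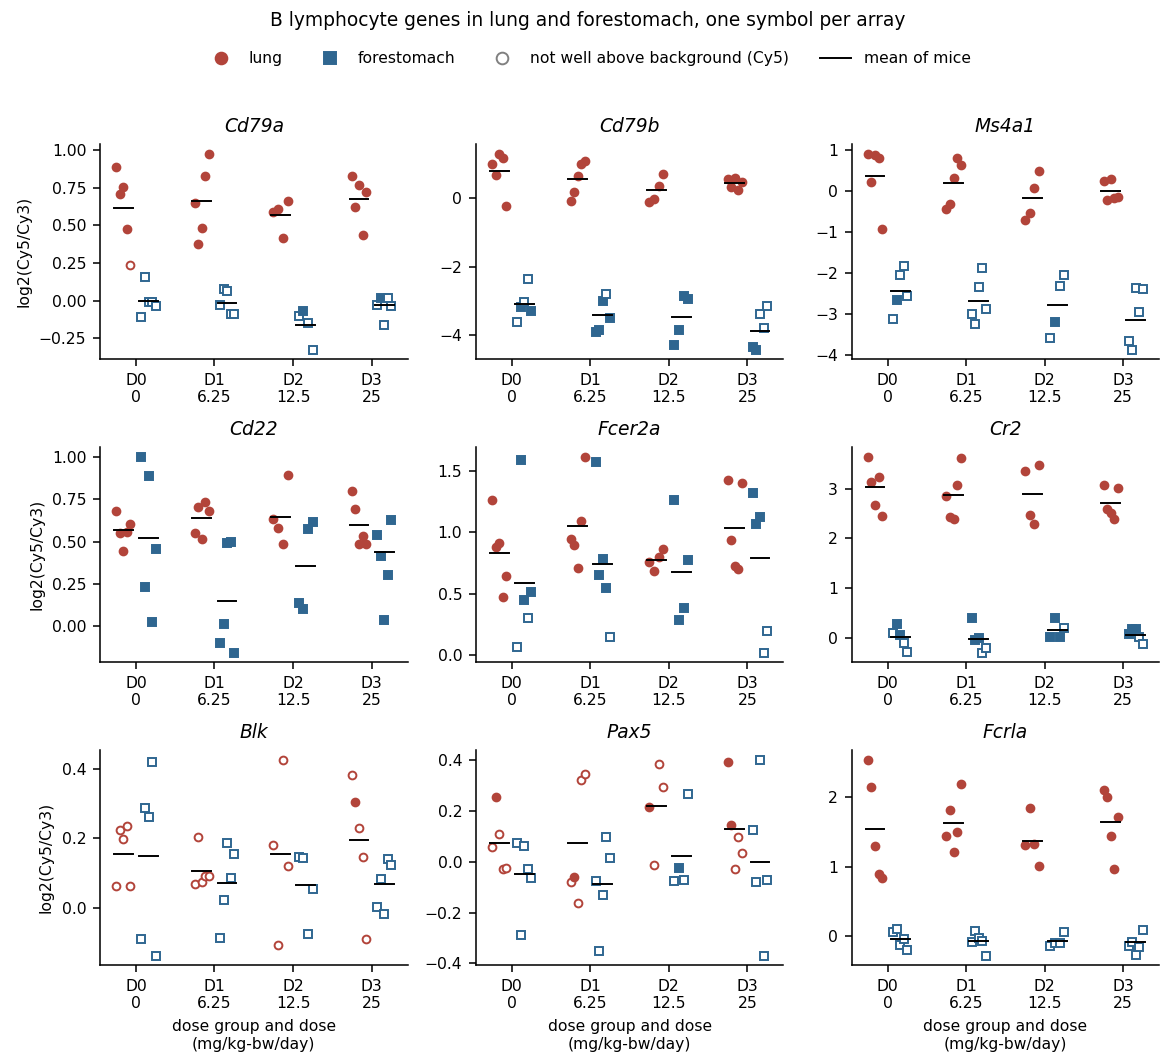
Log2(Cy5/Cy3) of the 9 genes (vertical axis, own scale in each panel) by dose group in lung (circles) and forestomach (squares), 1 symbol per array; hollow symbols were not well above background in Cy5 and the bars are means of mice. Lung lies above forestomach at every dose for Cd79a, Cd79b, Ms4a1, Cr2 and Fcrla, and the dose groups of a tissue overlap.

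The lowest point estimates were those of Cd79b and Ms4a1. Cd79b was -0.09, 0.18, 0.67, 0.99 and 1.07 in the lungs of D1 mice 6 to 10, -0.10, -0.03, 0.36 and 0.70 in D2 mice 11, 12, 13 and 15, and 0.57, 0.32, 0.59, 0.23 and 0.48 in D3 mice 16 to 20. All D2 and D3 lungs lay below the D0 mean of 0.79, and all lay above D0 mouse 5. Against D0, Cd79b had a log2 fold change of -0.22 (SE 0.25) at D1, -0.55 (SE 0.26, limma adjusted p = 0.617) at D2 and -0.35 (SE 0.25, limma adjusted p = 0.667) at D3. Ms4a1 was -0.45, -0.32, 0.30, 0.79 and 0.62 in the D1 lungs, -0.72, -0.54, 0.07 and 0.48 at D2, and 0.25, -0.22, 0.28, -0.19 and -0.15 at D3. Its groups overlapped at every dose. The log2 fold changes of Ms4a1 were -0.18 (SE 0.31), -0.54 (SE 0.33, limma adjusted p = 0.726) and -0.37 (SE 0.31, limma adjusted p = 0.732). They depended on 1 control and on the scaling. Without D0 lung of mouse 5, Cd79b stood at -0.60 and Ms4a1 at -0.70 at D3, neither called (limma adjusted p = 0.279 and 0.310), while with arrays centred on their median instead of loess the values turned to 0.16 and 0.06.

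The other 5 genes measured in lung had log2 fold changes between -0.32 and 0.22 over the 3 doses. Cr2 was 3.07, 2.59, 2.51, 2.39 and 3.01 in the lungs of D3 mice 16 to 20, inside or just below the range of the D0 lungs. Its log2 fold change at D3 was -0.32 (SE 0.26, limma adjusted p = 0.727), and -0.12 (SE 0.14) by its second probe. That probe had the one other unadjusted p under 0.05 in lung, at D2, with -0.31 (SE 0.14, limma adjusted p = 0.595). Cd79a changed by 0.06 (interval -0.19 to 0.32) at D3, Cd22 by 0.03 (-0.14 to 0.21), Fcer2a by 0.21 (-0.15 to 0.56) and Fcrla by 0.10 (-0.50 to 0.70). Their lungs lay between 0.44 and 0.82 at D3 for Cd79a, 0.48 and 0.80 for Cd22, 0.70 and 1.43 for Fcer2a, and 0.96 and 2.10 for Fcrla, and overlapped the D0 lungs in each case.

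**Figure D3:**
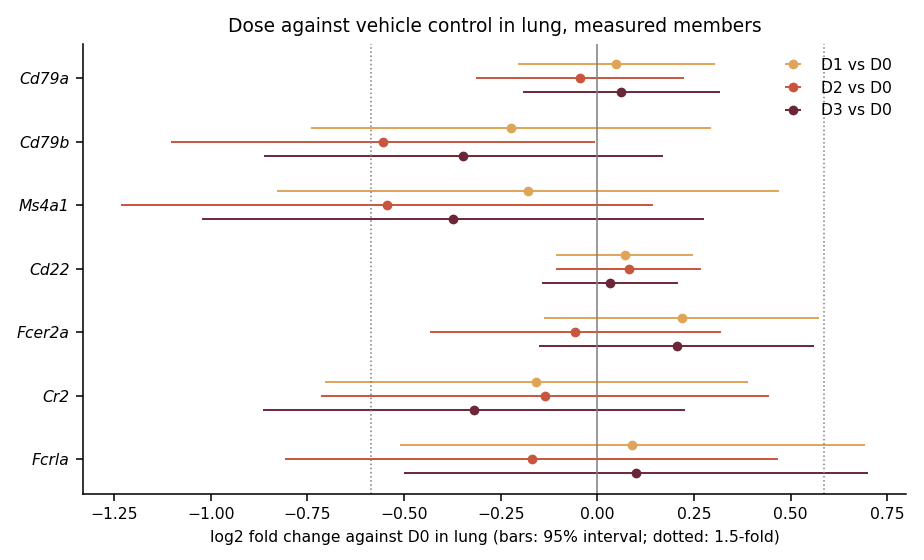
Log2 fold change against D0 in lung (horizontal axis) of the 7 genes measured there, with 95% intervals from limma, at D1, D2 and D3; dotted lines mark 1.5-fold. The points lie between -0.55 and 0.22, and all intervals but that of Cd79b at D2 include 0.

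The wider B cell lists gave the same picture in lung. None of the 12 other B cell genes, the 15 genes of receptor signalling, the 7 ligands or the 8 plasma cell genes was called at any dose. At D2, 10 of the 12 other B cell genes had a negative log2 fold change, with a median of -0.11. At D3 the medians of the lists were -0.10, -0.11, 0.01 and -0.19 on the log2 scale, against -0.00 over all probes. The plasma cell gene nearest to a call was Prdm1, named after its values were seen, which encodes a transcription factor that plasma cells need and other cells also use. Its log2 fold change at D3 was 0.58 (SE 0.14, limma adjusted p = 0.044), just under the fold limit. Of 6 germinal centre genes 1 was called, Bcl6, a transcriptional repressor that germinal centre B cells need and that many other cells also use. It fell by 0.69 at D3 (SE 0.15, limma adjusted p = 0.026), after -0.20 at D1 and -0.44 at D2, which were not called. All 10 T cell genes had a negative log2 fold change at D3, with a median of -0.14, and none was called. The mean log2 ratio of the T cell list lay between 0.14 and 0.46 in the D0 lungs and between -0.10 and 0.22 in the D3 lungs, and their part in the values of the B cell genes was not tested. No gene of the lists for NK cells, macrophages and granulocytes, follicular dendritic cells, MHC class II or lung epithelium was called in lung at any dose.

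The lungs differed widely within dose groups. The Cy5/Cy3 ratio ranged over 3.55-fold between the 19 lungs for Ms4a1, 3.26-fold for Fcrla, 2.85-fold for Cd79b, 2.55-fold for Cr2, 2.21-fold for Fcer2a, 1.67-fold for Cd79a and 1.37-fold for Cd22. The widest step lay within D0 and within 1 slide. There, mouse 1 had the highest mean of the 7 genes (1.56) and mouse 5 the lowest (0.52) of all 19 lungs, and mouse 1 was the higher for each of the 7. The 12 other B cell genes had a mean log2 ratio of 1.05 in mouse 1 and 0.35 in mouse 5, and lung epithelium genes of 6.53 and 6.65. D1 mouse 10 on the same slide was next to mouse 1 with 1.54. The mean of the 7 genes lay between 0.52 and 1.56 at D0, 0.84 and 1.54 at D1, 0.80 and 1.16 at D2, and 0.72 and 1.29 at D3.

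**Figure D4:**
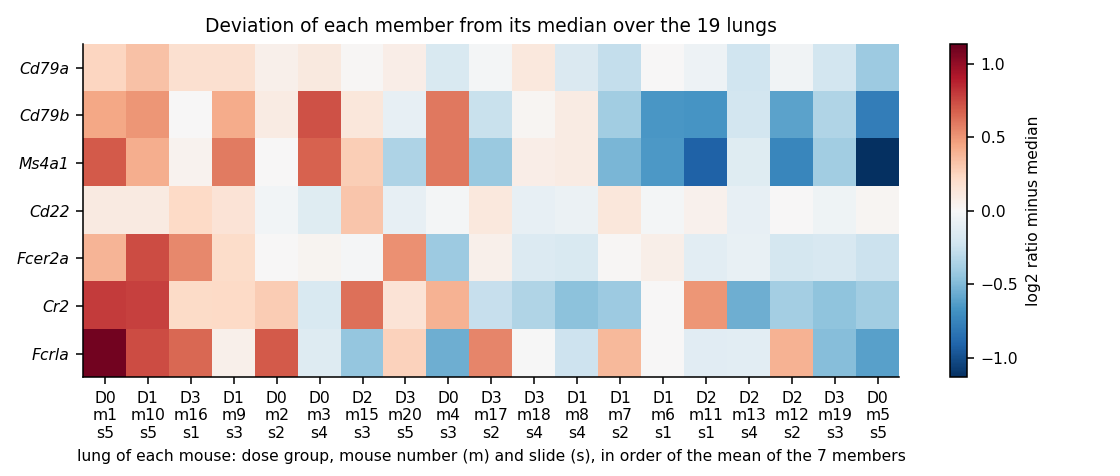
Deviation of each of the 7 genes measured in lung (rows) from its median over the 19 lungs, on the log2 scale (red above, blue below), with mice ordered by the mean of the 7 and labelled by dose group, mouse and slide. D0 mice stand at both ends, and the doses are mixed along the order.

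Some of the genes varied together between lungs. All 21 pairs among the 7 genes had a positive Pearson correlation over the 19 lungs, with a median r of 0.46. By permutation tests (100000 draws, two-sided, adjusted over the 21 pairs), 7 pairs passed at an adjusted p of 0.05 by Pearson's r and by Spearman's rho. The draws ran over all 19 lungs without regard to slide or dose group, so differences between slides enter these p-values. Cd79b and Ms4a1 had the closest relation (r = 0.97, rho = 0.97, adjusted p = 0.00021 by either permutation test, from a raw p of 1e-05, the smallest the draws can give), and r was 0.97 without the 2 mice farthest from the median of Cd79b. Cd79a correlated with Fcer2a (r = 0.74, rho = 0.74, permutation p = 0.00026 and 0.00057, adjusted 0.0027 and 0.0057, and r = 0.65 without the 2 farthest mice), and Fcer2a with Fcrla (r = 0.70, rho = 0.72, permutation p = 0.00088 and 0.00082, adjusted 0.0062 and 0.0057, and r = 0.62). The other pairs that passed were those of Cd79a with Cd79b, Ms4a1, Cr2 and Fcrla, with r between 0.58 and 0.65, rho between 0.60 and 0.65 and permutation adjusted p between 0.012 and 0.027. Their r was 0.41 to 0.55 without the farthest mice. Cd22 passed with none of the others, and its rho with Cd79b and Ms4a1 was -0.035 and -0.0088.

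With slide means removed, all 21 pairs stayed positive in r and the median r was 0.71, though not every pair was closer, as Cr2 had r = 0.41 with Fcer2a and 0.35 with Cd22 against 0.52 and 0.49 over the 19 lungs. With dose means removed the median was 0.45. Ms4a1 and Fcrla had r = 0.20 over the 19 lungs (rho = 0.11, permutation p = 0.414 and 0.642, adjusted 0.484 and 0.71, and r = -0.02 without the 2 farthest mice) and r = 0.84 with slide means removed. That value pools the slides, and slide 5 had the widest spans, from 0.83 to 2.54 for Fcrla and from -0.93 to 0.90 for Ms4a1. The D1 minus D0 difference had the same sign for both genes on slides 2, 4 and 5, and those of D2 and D3 on slide 2 alone. Slides differed in opposite directions for them. The slide means of Ms4a1 in lung were -0.31, -0.22, 0.47, 0.38 and 0.11 on slides 1 to 5, and those of Fcrla were 1.62, 1.95, 1.09, 1.32 and 1.82. Slide 1 held no D0 mouse. Within the 4 slides with D0 and D3 lungs, the D3 minus D0 difference was negative on all 4 for Ms4a1 (-0.99 to -0.13) and Cr2 (-0.85 to -0.04) and on 3 of 4 for Cd79b, and on 2 or fewer for the other genes. The second probe of Cr2 was negative on 3 of 4 (-0.48 to 0.084). At D2, Cd79b (-0.93 to -0.46), Ms4a1 (-0.81 to -0.32) and the second probe of Cr2 (-0.56 to -0.17) were negative on all 3 slides with D0 and D2 lungs. Cd22 was positive on all 3 at D2 (0.028 to 0.34) and on all 4 at D1 (0.037 to 0.18).

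**Figure D5:**
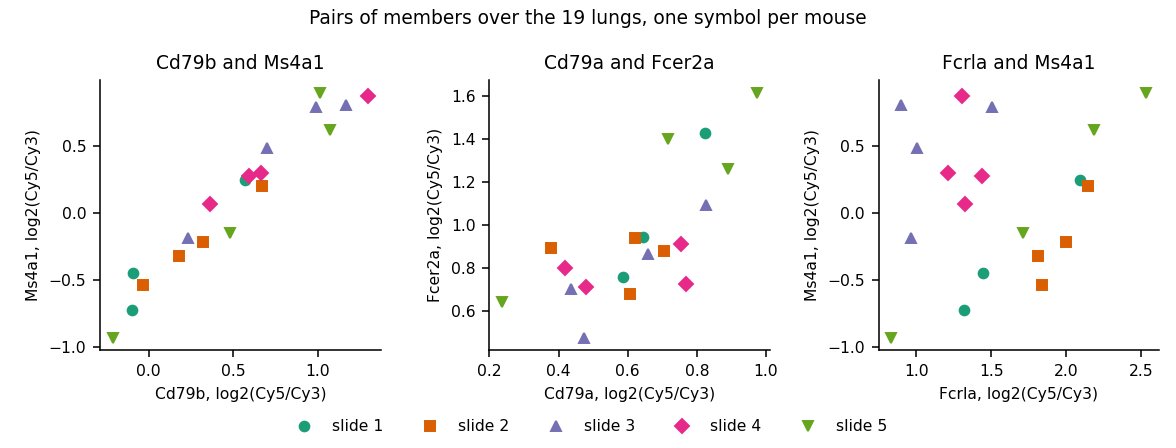
Log2(Cy5/Cy3) of 3 pairs of genes over the 19 lungs, 1 symbol per mouse, with shapes and colours for the 5 slides. Cd79b and Ms4a1 fall close to 1 line (r = 0.97), and Cd79a and Fcer2a rise together (r = 0.74). Fcrla and Ms4a1 have r = 0.20, against 0.84 with slide means removed.

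Described by likeness, the 10 genes whose lung values were most like the mean of the 9 B lymphocyte genes over 19 mice, of 17529 probes compared, were Coro1a (r = 0.86), Bank1 (0.85), Spib (0.85), Dusp2 (0.83), Ly6d (0.81), Ccr7 (0.80), Ripor2 (0.79), Cxcr5 (0.77), H2-Ob (0.77) and Tnfrsf13c (0.76). Coro1a encodes an actin-binding protein of leukocytes, Spib a transcription factor of B cells, Ccr7 the chemokine receptor that guides cells to lymphoid tissue, and Tnfrsf13c the receptor for BAFF. Bank1, Spib, Cxcr5, H2-Ob and Tnfrsf13c stood on the lists used here. The mean of the 7 measured genes had r = 0.90 with that of the 12 other B cell genes and 0.62 with that of the receptor signalling genes. It had r = 0.54 with NK cell genes, 0.50 with MHC class II genes, 0.47 with T cell genes and 0.19 with the ligands. The r was 0.16 with plasma cell genes, -0.06 with macrophage and granulocyte genes and -0.08 with lung epithelium genes. All these means come from the same arrays. In forestomach, over 18 mice and 15479 probes, the 10 were Tubgcp2 (r = 0.90), Mfng, Cdca8, Pop1, Kntc1, Slbp, Ckap2, Gchfr, Klra16 and Atp8b4 (0.85), and no gene stood among the 10 of both tissues. Most of the 9 genes were at background there.

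In forestomach, none of the 9 genes was called at any dose, and none of all 55681 probes was (0% at D1, D2 and D3). At an unadjusted p under 0.05, 2402, 1737 and 1986 probes passed in the order of the doses. Of the 9 genes these held none at the lowest dose, Cd79a at the middle one and Cd79b at the highest, both dim in this tissue. Cd22 was the one member measured on every forestomach array. Its values were 1.00, 0.23, 0.89, 0.02 and 0.46 in D0 mice 1 to 5, and 0.54, 0.41 and 0.63 in D3 mice 16, 17 and 19 with 0.03 and 0.30 on the arrays of mouse 18. The groups overlapped, and its log2 fold change was -0.08 at D3 (SE 0.20, limma adjusted p = 1.00). Fcer2a, measured on 14 of 19 forestomach arrays, was highest in D0 mouse 2 (1.60), D1 mouse 6 (1.57), D3 mouse 16 (1.32) and D2 mouse 11 (1.27), thus in 1 mouse of each dose group, of which 3 shared slide 1. Its log2 fold change at D3 was 0.21 (SE 0.33, limma adjusted p = 1.00).

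The log2 ratios of Cd79b and Ms4a1 in forestomach were far below 0, since the reference was bright for both probes (well above background in Cy3 on all 38 arrays) and the tissue dim. Cd79b had a mean of -3.09 at D0 and -3.87 at D3 (difference -0.77, SE 0.35, limma adjusted p = 1.00). In each of these groups 2 of 5 arrays were well above background, so no fold is given. Slide means of Cd79b ran from -4.17 on slide 1 to -2.80 on slide 3, a wider span than between doses.

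The response to the highest dose was compared between the tissues directly. None of the 9 genes was called for a difference in its D3 response between lung and forestomach (0 of 9, against 0.172% of all probes), and the lowest limma adjusted p among them was 1.00. At an unadjusted p under 0.05, 0 of 9 passed, and 2781 of all 55681 probes did. Most of the 9 were at or near background in forestomach, and the estimates were wide, with 0.43 (SE 0.44) for Cd79b and 0.33 (SE 0.52) for Ms4a1, so a difference may have gone undetected. For Cd22, measured in both tissues throughout, the difference of the log2 fold changes was 0.12, with an interval from -0.33 to 0.56.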

How the data were processed

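Lung and forestomach RNA was hybridized to 38 two-colour Agilent arrays. The deposited scanner files hold the median Cy5 and Cy3 intensity of each spot and Agilent's log10 ratio, written by Feature Extraction 10.7.3.1. A table of log2 ratios that the authors normalized by LOWESS was deposited too, and it correlated with the values computed here with r of 0.995 to 0.999 and slopes of 0.990 to 0.998, so its scale and direction were known. Its column medians lay between -0.042 and -0.020.

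Log2(Cy5/Cy3) was computed from the median intensities without background correction and normalized within each array by loess (limma 3.58.1, R 4.3.3). Control spots had no weight in the loess and were then left out, and 372 values were emptied by outlier flags; no spot was saturated. Spots were averaged per probe, and the probe with the highest mean Cy5 intensity stood for a gene. Contrasts were fitted with lmFit and eBayes over the 55681 probes, on lung and forestomach groups apart for doses and together for tissues, with Benjamini-Hochberg adjustment. Calls needed a 1.5-fold difference and an adjusted p no higher than 0.05. The study's own test, a permutation F test, was not used here. The arrays give no read depth, and their number limits the precision.

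Groups followed the labels. The arrays with the number of D3 mouse 18 in forestomach were averaged, and of D3 mouse 20 the lung alone was used here. The same mouse number in both tissues is the same animal per the labels. Over 18 such pairs, deviations from the group means correlated with r of 0.075 to 0.249, and 16 were over 0.1. The members and the gene lists (other B cell genes, receptor signalling, ligands, germinal centre, plasma cell, T cell, NK cell, macrophage and granulocyte, follicular dendritic, MHC class II, lung epithelium, squamous epithelium, glandular stomach and p53 targets) were chosen with earlier results of these data known. All 9 members were named. Of a list, genes called in a contrast were named, up to 4 by size (1 such gene is not reported here), and the 10 genes with the highest r to the mean of the members in each tissue. Some markers of tissues and p53 targets were named as examples after their values were seen. Promoters came from RefSeq. Fits were tested on simulated data.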

Additional observations from a re-analysis of the deposited data

How the results depend on the processing

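The number of the 9 genes called stayed at 0 for each dose in lung and forestomach and for the D3 response between tissues, and at 4 or 5 between the tissues at D0, under every alternative run and with each mouse left out in turn. With mouse as a replicate block (fixed, or random with a correlation of 0.130), 5 genes were called between the tissues and 0 for the D3 response, so the pairing changed no call. In the comparison of the tissues, Cd79a lost its call with median centring (0.26), with the authors' values (0.57) and with the forestomach arrays low in glandular stomach markers (0.55, chosen after seeing the data, with 1 array left at D2 and at D3 that was assumed to vary like the other groups), and ranged from 0.55 to 0.71 with single mice left out. Feature Extraction ratios, which are background-subtracted, gave larger differences, with 2.36 for Cd79a, 5.68 for Cd79b and for Ms4a1, 4.77 for Cr2 and 4.46 for Fcrla. Median centring gave 0.83 for Fcrla, and the mean of both probes 2.11 for Cr2. Fcer2a turned to -0.22 on those arrays and Cd22 to -0.015 with Feature Extraction ratios. In lung, signs turned for values that were not called. With median centring these were, at D1, Cd79b (0.21), Ms4a1 (0.19) and Cr2 (0.048), at D2 Cd79b (0.0052), Fcer2a (0.11) and Cr2 (0.12), and at D3 Cd79b (0.16) and Ms4a1 (0.060). At D2, Fcer2a was 0.073 with slide and 0.093 with scan day as a block, Cr2 was 0.0056 with scan day, and Feature Extraction ratios gave 0.044 for Cd79a and -0.015 for Cd22. At D3, Cd22 was -0.041 with Feature Extraction ratios and -0.010 with the authors' values. The cause was not tested.

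Leaving out single mice turned the sign of some small lung values. At D1, Cd79a ranged from -0.045 to 0.12 and Fcrla from -0.087 to 0.34. At D2, Cd79a ranged from -0.14 to 0.025, Cd22 from -0.0021 to 0.14, Fcer2a from -0.15 to 0.050, Cr2 from -0.33 to 0.065 and Fcrla from -0.35 to 0.078. At D3, Cd79a ranged from -0.032 to 0.13, Cd22 from -0.018 to 0.062 and Fcrla from -0.078 to 0.35. Between the tissues, Cd22 ranged from -0.077 to 0.17. Without D0 mouse 5, Cd79b and Ms4a1 stood at -0.47 and -0.50 at D1, -0.80 and -0.87 at D2, and -0.60 and -0.70 at D3.

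Counts over all probes moved more. In lung at D1, D2 and D3, 78, 147 and 356 probes were called, against 0, 5 and 16 with median centring, 160, 225 and 533 with Feature Extraction ratios and 130, 242 and 505 with slide as a block. Median centring called 4561 probes between the tissues, against 9032, and 2 for the D3 response, against 96, which was 204 with slide and 198 with scan day as a block. Blk, most of Pax5 and most forestomach values of Cd79a, Ms4a1 and Fcrla were not well above background, so smaller differences there could not be measured.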
